A study of Mus musculus with 468 samples.

Results

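Libraries in which Trem2 was high relative to Adgre1 were compared with libraries in which it was low, to ask which genes moved with the state of adipose macrophages rather than with their number. The members were chosen by the measured ratio log2((Trem2 + 0.5)/(Adgre1 + 0.5)), with each gene in counts scaled to a common library total (CPM). The ratio was ranked separately in libraries with no Ddx3y counts (48.5% of the series) and with Ddx3y counts (51.5%), because the labels give no sex and Ddx3y is a Y chromosome gene. The top quartile held 56 libraries without and 60 with Ddx3y counts, and the bottom quartile the same numbers, so that each end was 24.8% of all libraries. The 2 quartiles between held 57 and 57 libraries without and 60 and 60 with Ddx3y counts, and 1 library at the median of each cluster lay between them.

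Each library was the fat of one Diversity Outbred mouse. Such mice come from the random mating of lines that began with several inbred strains, so every animal had its own genotype. The labels give the tissue as adipose and the diet as high in fat and sugar with 45 percent fat, and the study's methods name the gonadal fat pad. All mice had the same diet, there was no treated or control group, and age, generation and wave were not in the labels. Each mouse gave 1 library, so the spread is that between mice. Library totals were 35.3 M to 137.8 M counts, with medians between 79.98 M and 82.7 M in the 4 groups compared.

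Trem2 is a lipid-sensing receptor of macrophages that signals through the adaptor Tyrobp and the kinase Syk. In the fat of obese animals it marks lipid-associated macrophages, which gather around dying fat cells and share genes such as Gpnmb, Cd9, Lgals3 and Spp1. Adgre1 encodes F4/80, a surface protein of most mouse tissue macrophages, and Csf1r encodes the receptor for the growth factor they depend on. In whole tissue, fewer cells of a type and less RNA per cell cannot be told apart.

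The ratio was carried mainly by Trem2. These values chose the members and are given as a description with no test. Among libraries without Ddx3y counts, Trem2 was 0.949, 3.83 and 14.5 CPM (lowest, median and highest) in the bottom quartile and 15.6, 60.2 and 117.8 CPM in the top quartile. Among libraries with Ddx3y counts it was 0.780, 6.87 and 68.3 CPM in the bottom quartile and 27.7, 96.6 and 180 CPM in the top quartile. The top medians were thus 15.7-fold and 14.1-fold the bottom medians, and only the libraries with Ddx3y counts had overlapping ranges.

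Adgre1 differed little between the medians of the same quartiles. Its median was 38.7 CPM in the bottom and 33.3 CPM in the top quartile without Ddx3y counts, and 49.2 and 51.8 CPM with them. Adgre1 reached its highest medians, 86.03 and 105.7 CPM, in the second and the third quartile with Ddx3y counts. The extremes of the ratio in that cluster were therefore libraries low in Adgre1, and the middle held the libraries highest in it. Over all libraries of a cluster, the variance of log2 Trem2 was 2.64 without and 2.63 with Ddx3y counts, against 0.562 and 0.914 for Adgre1.

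The ratio had a thinly filled stretch, below the cut of the top quartile without Ddx3y counts and inside the top quartile with them. Without Ddx3y counts, 37 libraries lay between -3 and -2.5, 9 between -0.5 and 0, 22 between 0 and 0.5, and 23 between 0.5 and 1. With Ddx3y counts, 47 lay between -2 and -1.5, 18 between -0.5 and 0, 5 between 0 and 0.5, and 22 between 0.5 and 1. At the cuts, the last library outside the top quartile stood at 0.196 and the first inside at 0.258 without Ddx3y counts, and at -0.396 and -0.366 with them. The last library in the bottom quartile stood at -2.731 and the next at -2.728 without, and at -2.124 and -2.116 with.

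**Figure D1:**
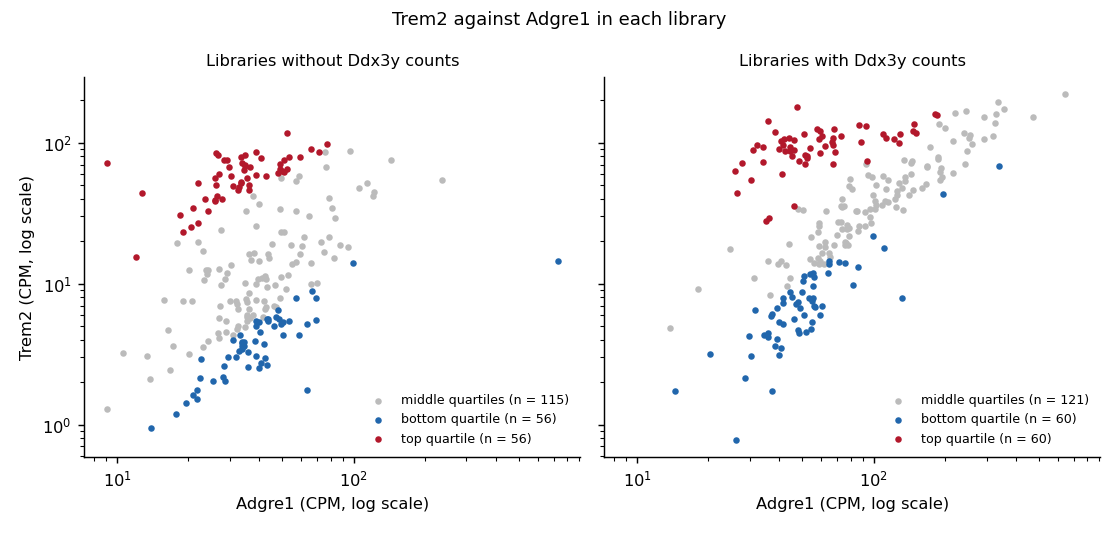
Trem2 against Adgre1 in each library, both in CPM on log axes, for libraries without and with Ddx3y counts. Red points are the top quartile of the ratio, blue the bottom quartile and grey the quartiles between, and the top quartiles reached medians of 60.2 and 96.6 CPM of Trem2 at Adgre1 medians of 33.3 and 51.8 CPM.

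A few libraries stood apart. Mouse DO021, in the bottom quartile without Ddx3y counts, had 730 CPM of Adgre1 with 166.3 CPM of Csf1r and 14.5 CPM of Trem2. Mouse DO180, in the top quartile with Ddx3y counts, held over 20% of the summed CPM of 33.4% of the genes called there. It held 844 CPM of Dnah8, a flagellar dynein, against 29.2 CPM in the next highest library of the top and bottom quartiles, and 311.8 CPM of Ybx2, a germ cell RNA-binding protein, against 17.9 CPM. Mouse DO032, in the top quartile without Ddx3y counts, held 500 CPM of Cyp11a1, the first enzyme of steroid hormone synthesis, against 5.18 CPM in the next highest of the top and bottom quartiles, while 1 library of the third quartile stood at 819 CPM. Calls are therefore also given without DO180 and with each gene's counts capped at their 99th percentile over libraries.

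Top and bottom quartiles were compared gene by gene with edgeR's quasi-likelihood test, and a gene was called at a Benjamini-Hochberg adjusted p under 0.05. Calls were counted over 18368 genes. Without Ddx3y counts, 150 genes (0.817%) were higher and 69 (0.376%) lower in the top quartile. With Ddx3y counts, 2.32% of the genes were higher and 0.898% lower. Without DO180 these shares were 0.321% (59 genes) and 0.256% (47 genes). With capped counts, 95 genes (0.517%) were called without and 46 (0.25%) with Ddx3y counts. Of the genes called with Ddx3y counts, 39.7% had over 20% of their summed CPM in 1 library, as had 33.3% of those called without.

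In both clusters and in the same direction, 13 genes (0.0708%) were higher and 14 (0.0762%) lower. Without DO180, 15 genes were called in both. With capped counts 6 genes (0.0327%) were, and all 6 lie on chromosome 17, which carries Trem2 itself: Treml1, Nfya, B230354K17Rik, Ddr1 and Cchcr1 were higher and Bicral lower. Of these, Treml1, Nfya, B230354K17Rik and Cchcr1 were also called in both clusters with mouse number and library number in the model. In the libraries without Ddx3y counts, Bicral was called with capped counts and not with the counts as deposited.

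Trem2 lies in a cluster of related receptor genes. Treml1, the gene next downstream on the same strand, encodes TLT-1, a receptor stored in platelet granules. The stretches before their starts are shown because the genes are neighbours and their levels moved together. They are the 250 bases upstream of each start, from RefSeq on build GRCm38.p6, plus strand, at chr17:48346151-48346400 for Trem2 and chr17:48359666-48359915 for Treml1. Capitals mark the E-box CACGTG, the hexamer bound by the lysosomal regulators Mitf, Tfeb and Tfe3.
Trem2: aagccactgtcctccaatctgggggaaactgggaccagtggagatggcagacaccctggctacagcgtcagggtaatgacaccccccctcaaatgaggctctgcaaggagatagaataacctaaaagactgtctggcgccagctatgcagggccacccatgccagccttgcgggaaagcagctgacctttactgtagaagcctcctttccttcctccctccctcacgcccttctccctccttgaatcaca
Treml1: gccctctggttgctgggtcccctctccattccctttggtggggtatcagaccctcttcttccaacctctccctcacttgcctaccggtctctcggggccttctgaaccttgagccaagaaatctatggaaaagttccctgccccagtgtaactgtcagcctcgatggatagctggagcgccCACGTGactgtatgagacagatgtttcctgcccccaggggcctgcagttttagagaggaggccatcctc

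The E-box in Treml1 begins 69 bases before the start, and neither an E-box nor the PU.1 core GAGGAAGT on either strand was in the Trem2 stretch. In the 300 bases from 250 before to 50 after the start, 10.9% of 12668 tested genes held an E-box and 3.77% the PU.1 core. Among the genes higher in both clusters, 2 of the 12 with a promoter sequence held the E-box (16.7%) and 0 the PU.1 core. Of the 8 lower genes with a sequence, 0 held either motif. A match is a description of the letters, not a site of binding.

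Treml1 had the largest fold change of the 6 genes called in both clusters with capped counts. Its gene (ENSMUSG00000023993, GRCm38 chr17:48359916-48367176) begins 5769 bases after Trem2 ends, and the gene intervals do not overlap. Without Ddx3y counts it was 0, 0.139 and 1.88 CPM in the bottom quartile and 0.868, 4.88 and 15.1 CPM in the top quartile, here and for the genes below in CPM scaled by edgeR's TMM factors. With Ddx3y counts it was 0, 0.108 and 1.59 CPM in the bottom and 0.977, 6.26 and 12.4 CPM in the top quartile.

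In the top quartiles, 54 of 56 and 59 of 60 libraries lay above the highest library of the bottom quartile for Treml1. The edgeR log2 fold change was 4.04 (adjusted p = 1.3e-24) without and 4.82 (adjusted p = 8.0e-34) with Ddx3y counts. The difference also stood between the middle quartiles, in libraries that are not members but were ranked by the same ratio. There the third against the second gave 1.72 (edgeR adjusted p = 5.2e-06) and 1.77 (adjusted p = 1.9e-05). In that comparison 42 genes (0.229%) were called without and 38 (0.207%) with Ddx3y counts.

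Treml1 was not a fixed share of Trem2. The ratio of Treml1 to Trem2 had medians of 3.82%, 4.54%, 6.57% and 9.12% from the bottom to the top quartile without Ddx3y counts. With Ddx3y counts the medians were 1.34%, 1.16%, 3.02% and 6.91%. Whether reads of Trem2 transcripts counted towards its neighbour was not tested.

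The other receptor genes of the cluster had smaller differences than Treml1. Treml2 had a log2 fold change of -0.25 (edgeR adjusted p = 0.51) without and -0.57 (adjusted p = 0.069) with Ddx3y counts. Treml4 had 0.61 (adjusted p = 0.12) and 0.34 (adjusted p = 0.28). Trem1 and Trem3 were under the filter on low counts, with medians of at most 0.197 CPM in any quartile, and were not tested. Their difference in mean log2 CPM was upward, for Trem3 1.66 (95% interval 1.29 to 2.03) without and 1.16 (0.77 to 1.55) with Ddx3y counts. For Trem1 it was 0.50 (95% interval 0.08 to 0.92) and 1.45 (0.91 to 2.00). The predicted receptor gene B430306N03Rik rose without Ddx3y counts, by 0.61 (adjusted p = 0.039), and had 0.18 (adjusted p = 0.70) with them.

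Nfya, which encodes the DNA-binding A subunit of the CCAAT-box factor NF-Y, was slightly higher in the top quartiles. The gene lies on the minus strand at GRCm38 chr17:48386885-48409906. Without Ddx3y counts it was 28.5, 34.1 and 46.5 CPM in the bottom and 31.9, 39.9 and 54.98 CPM in the top quartile. With Ddx3y counts it was 24.7, 31.7 and 49.9 CPM in the bottom and 26.5, 37.5 and 46.3 CPM in the top quartile.

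The ranges of Nfya overlapped almost wholly, yet 53 of 56 and 56 of 60 top libraries lay above the bottom median. The log2 fold change was 0.20 in both clusters (edgeR adjusted p = 4.1e-08 without and 1.7e-04 with Ddx3y counts). With Ddx3y counts its third-quartile median, 39.9 CPM, was above the top-quartile median. Oard1, which starts next to Nfya on the other strand, had 0.12 (adjusted p = 0.062) and 0.10 (adjusted p = 0.15).

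B230354K17Rik is a long non-coding RNA gene 2.9 Mb before Trem2 that overlaps the splicing factor gene Cdc5l and the sperm gene Spats1, so its reads are not certain to be its own. It was 18.5, 23.5 and 61.04 CPM in the bottom and 18.8, 37.6 and 72.7 CPM in the top quartile without Ddx3y counts. With Ddx3y counts it was 15.8, 21.05 and 50.6 CPM in the bottom and 15.5, 37.2 and 70.9 CPM in the top quartile. The libraries fell into a lower and a higher set, separated near 30 CPM, a cut chosen after the values were seen.

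Above 30 CPM of B230354K17Rik stood 40 of 56 libraries of the top quartile without Ddx3y counts, against 11 of 57, 1 of 57 and 13 of 56 in the third, the second and the bottom quartile. With Ddx3y counts the numbers were 41 of 60 in the top quartile and 4, 4 and 5 of 60 in the others. The log2 fold changes were 0.44 (edgeR adjusted p = 0.0025) and 0.62 (adjusted p = 1.4e-07). The third against the second quartile gave 0.26 (adjusted p = 0.26) and -0.03 (adjusted p = 0.89). By median its step lay at the top quartile, unlike Treml1, which was higher in each successive quartile. From the bottom to the top quartile the medians were 23.5, 22.9, 23.5 and 37.6 CPM without Ddx3y counts. With them the medians were 21.05, 19.9, 19.8 and 37.2 CPM. By number above 30 CPM there was no single step without Ddx3y counts, since the bottom and the third quartile also held more such libraries than the second.

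Ddr1, a collagen-binding receptor kinase, was higher in both top quartiles, with log2 fold changes of 0.46 (edgeR adjusted p = 0.011) and 0.50 (adjusted p = 0.0011). Its medians went from 47.8 to 59.2 CPM without and from 64.4 to 101.8 CPM with Ddx3y counts, with wide overlap of the ranges. With mouse and library number in the model its adjusted p was 0.067 without and 0.0015 with Ddx3y counts. Cchcr1, a coiled-coil gene of the major histocompatibility region, rose by 0.25 (adjusted p = 0.0066) and 0.45 (adjusted p = 0.0084), the second falling to 0.19 (adjusted p = 0.041) without DO180.

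**Figure D2:**
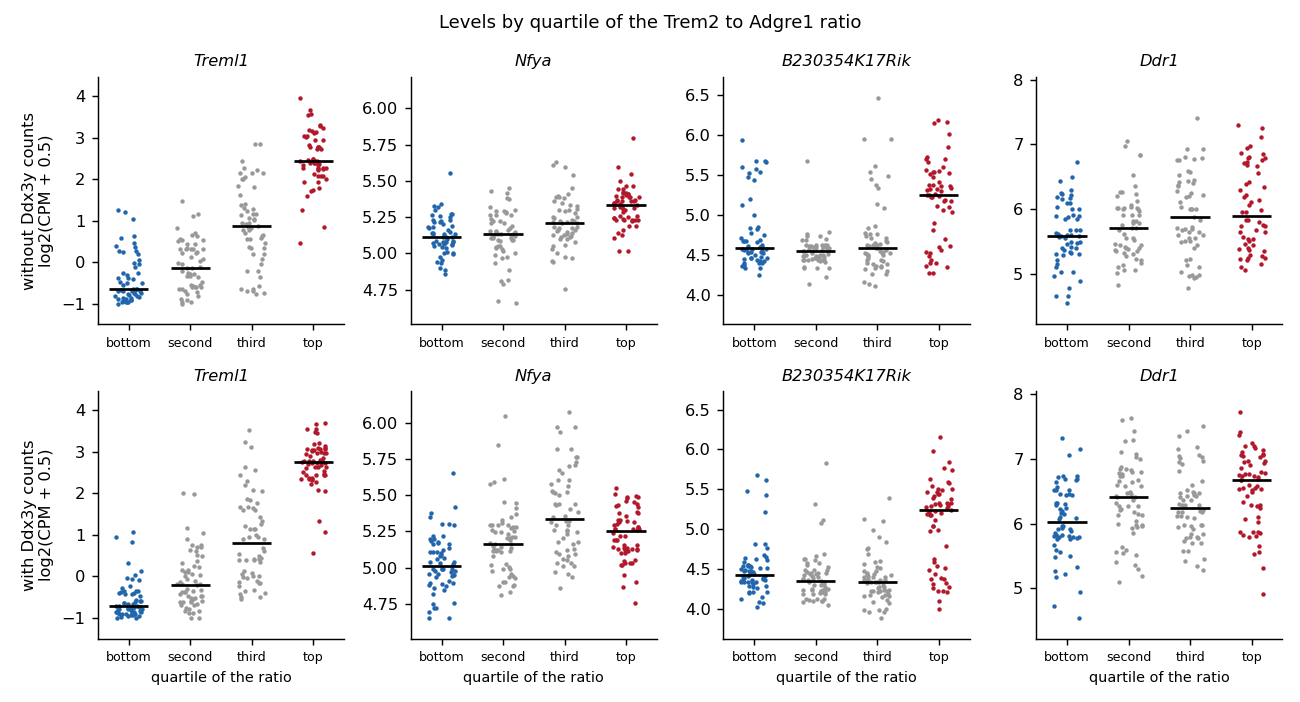
Levels of Treml1, Nfya, B230354K17Rik and Ddr1 in every library by quartile of the ratio, as log2(CPM + 0.5), with libraries without Ddx3y counts above and with them below. Points are libraries and bars are medians; Treml1 stepped up in each quartile, while B230354K17Rik had 40 of 56 and 41 of 60 libraries above 30 CPM in the top quartiles.

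Genes around Trem2 were called more often than genes elsewhere. Within 2 Mb of Trem2, 56 genes were tested, of which 6 (10.7%) were called without and 13 (23.2%) with Ddx3y counts, and 5 (8.93%) in both. On other chromosomes the shares were 1.07%, 3.05% and 0.0971% of 17515 genes. With capped counts, 3 of the 56 genes (5.36%) and 0 of the 17515 were called in both. On the whole of chromosome 17, 10 of 853 genes (1.17%) were called in both. Adgre1 lies 9.0045 Mb away on the same chromosome. Of 58 genes within 2 Mb of it, 5 (8.62%) were called without, 3 (5.17%) with Ddx3y counts and 0 in both. The shares near Adgre1 in each single cluster were thus also above those of other chromosomes. The shares are descriptions, since neighbouring genes are not independent of each other. Genotypes were not used here.

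Other neighbours passed in 1 cluster only, at very low levels, or in both clusters with small falls. 9830107B12Rik, 0.2 Mb before Trem2, went from a median of 0.124 to 0.563 CPM without Ddx3y counts (log2 fold change 1.15, edgeR adjusted p = 0.037) and from 0.147 to 0.850 CPM with them (1.67, adjusted p = 4.7e-04). H2-K2, an MHC class I gene whose reads can be shared with its close paralogs and are uncertain, went from 5.62 to 26.8 CPM with Ddx3y counts (1.53, adjusted p = 6.5e-04). Without them it went from 7.11 to 13.6 CPM (0.90, adjusted p = 0.13). Usp49, a ubiquitin protease gene that overlaps Tomm6, fell by 0.14 in each cluster (adjusted p = 0.039 and 0.0079). Pex6, a peroxisome import factor, fell by 0.25 (adjusted p = 0.019) and 0.20 (adjusted p = 0.028), the latter with adjusted p = 0.058 without DO180.

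**Figure D3:**
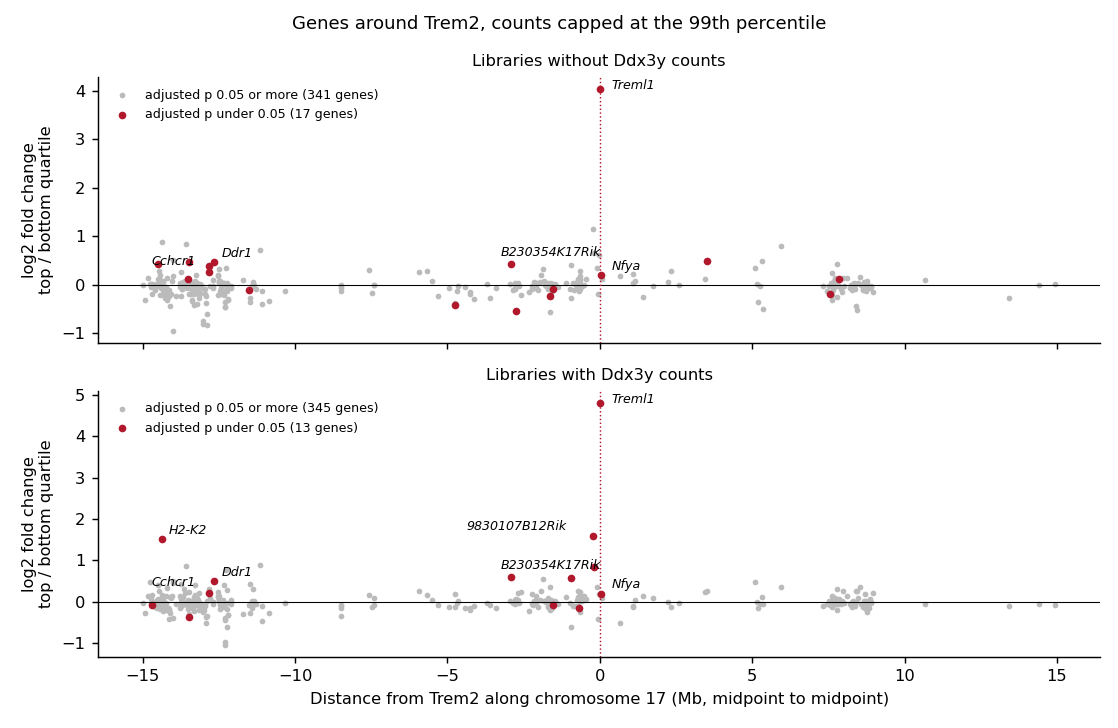
Log2 fold change of top against bottom quartile, with counts capped at the 99th percentile, by distance from Trem2 in Mb along chromosome 17. Red points have an adjusted p under 0.05; Treml1 stands at 4.03 and 4.81 beside the dotted line that marks Trem2, and named genes lie between 15 Mb before it and its immediate neighbours.

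Away from chromosome 17, 5 of the genes that averaged 5 CPM or more were higher in both clusters. Ctsl, the lysosomal protease cathepsin L, went from a median of 408.9 to 525.3 CPM without Ddx3y counts (log2 fold change 0.39, edgeR adjusted p = 0.0082) and from 609.1 to 771 CPM with them (0.39, adjusted p = 0.033). C1qtnf6, a secreted relative of adiponectin, rose by 0.42 and 0.33 (adjusted p = 0.033 and 0.042). The collagen-processing genes Plod2, which hydroxylates lysines, and Adamts2, which trims procollagen, rose by 0.45 and 0.32 without and by 0.20 and 0.29 with Ddx3y counts. Ddost, a subunit of the protein glycosylation complex, rose by 0.14 and 0.08. With Ddx3y counts the second and the third quartile had higher medians than the top quartile for all 5, as for Ctsl with 959 and 971 CPM and C1qtnf6 with 17.1 and 19.5 CPM against 12.4 CPM. Without DO180 none of the 5 passed in the libraries with Ddx3y counts, with adjusted p from 0.050 to 0.073. With mouse and library number in the model none of the 5 passed in the libraries without Ddx3y counts, with adjusted p of 0.066 for Ctsl and up to 0.14 for C1qtnf6.

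The 16 general macrophage genes other than Adgre1 were read as a measure of macrophage amount. Of all genes, 0.817% were higher and 0.376% lower without, and 2.32% and 0.898% with Ddx3y counts. In the libraries without Ddx3y counts 0 of 16 passed in either direction, and the median log2 fold change was -0.09 beside -0.0016 over all genes tested. With Ddx3y counts 1 of 16 rose, the complement receptor gene C3ar1 (0.53, edgeR adjusted p = 0.029, and 0.051 without DO180), and the median was 0.30 beside 0.0049. Csf1r went from a median of 144.9 to 135.3 CPM without and from 160.6 to 175.6 CPM with Ddx3y counts. Its difference in mean log2 CPM was -0.05 (95% interval -0.19 to 0.10) and 0.16 (0.01 to 0.30). Lyz2, lysozyme, went from 260.3 to 262.97 CPM without and from 322.1 to 381.5 CPM with Ddx3y counts.

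Of 15 genes for the signalling and processing of Trem2, 0 passed without Ddx3y counts. With them 1 rose, the adaptor gene Blnk (0.45, edgeR adjusted p = 0.042, and 0.063 without DO180). Beside these stand 0.817% of all genes higher and 0.376% lower without, and 2.32% and 0.898% with Ddx3y counts. Tyrobp, the adaptor that Trem2 needs, went from a median of 14.1 to 13.5 CPM without Ddx3y counts, with a difference in mean log2 CPM of -0.02 (95% interval -0.20 to 0.17). With them it went from 16.7 to 19.5 CPM, with a difference of 0.32 (0.09 to 0.56), and edgeR gave an adjusted p of 0.066. Syk had log2 fold changes of -0.15 and 0.13. Adam10, the protease that sheds the receptor, had 0.05 and 0.06, and neither Syk nor Adam10 passed.

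In the libraries with Ddx3y counts, 13 of 22 lipid-associated macrophage genes rose and 0 fell, beside 2.32% of all genes higher, and the median log2 fold change was 0.47. Without DO180, 8 rose, beside 0.321% of all genes: Gpnmb, Atp6v0d2, Mmp12, Itgax, Ctsk, Lipa, Pld3 and Slc37a2. With capped counts 7 rose. Without Ddx3y counts 1 of 22 rose, beside 0.817% of all genes, the galectin gene Lgals1 (0.24, edgeR adjusted p = 0.042), and the median was 0.12. None of the 22 was called for a difference between the clusters, so the lists are not shown to differ by cluster.

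Gpnmb, a lysosomal glycoprotein of lipid-laden macrophages, was 12.4, 40.3 and 358.4 CPM in the bottom and 10.8, 83.8 and 1339 CPM in the top quartile with Ddx3y counts (log2 fold change 1.37, edgeR adjusted p = 4.7e-04). Of the top libraries, 42 of 60 lay above the bottom median. The second and the third quartile had higher medians still, 167.1 and 282.2 CPM, and these were also the quartiles highest in Adgre1. Without Ddx3y counts Gpnmb had medians of 17.4 CPM in the bottom and 13.5 CPM in the top quartile and a log2 fold change of 0.70 (adjusted p = 0.11). There only 24 of 56 top libraries lay above the bottom median, so the median and the fold change differed in sign.

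Itgax, which encodes CD11c, showed the same shape, with medians of 11.7 CPM in the bottom, 52.5 and 85.4 CPM in the middle and 19.9 CPM in the top quartile with Ddx3y counts (top against bottom 1.16, edgeR adjusted p = 0.0089). The matrix metalloprotease Mmp12 had 1.49 (adjusted p = 0.0036) and the proton pump subunit Atp6v0d2 1.18 (adjusted p = 0.0062). The tetraspanin gene Cd9 had 0.25 (adjusted p = 0.039, and 0.058 without DO180). Spp1, osteopontin, had 0.73 (adjusted p = 0.20), and the lipid carrier Fabp5 had 0.02 (adjusted p = 0.93).

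Adgre1 was then put in the model beside the quartiles, which asks what differed at a given Adgre1 level. Adgre1 is itself part of the ratio, so the quartile and the added term are not independent. At a given Adgre1 level the ratio differs only through Trem2, so this fit compares libraries high and low in Trem2. Over all libraries of a cluster, the covariance of log2 Trem2 and log2 Adgre1 was 0.347 without and 0.895 with Ddx3y counts. State and amount of macrophages therefore cannot be told apart in this fit. Without Ddx3y counts 1723 genes (9.38%) were then higher and 1672 (9.1%) lower. With Ddx3y counts 1.37% were higher and 52 genes (0.283%) lower, and without DO180 13 and 8. In both clusters 48 genes (0.261%) were higher and 21 (0.114%) lower.

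At a given Adgre1 level, 11 lipid-associated macrophage genes rose and 1 fell without Ddx3y counts, beside the 9.38% and 9.1% of all genes. With Ddx3y counts 6 rose: Gpnmb, Itgax, Ctsk, Cd68, Pld3 and Slc37a2. Without DO180 only Gpnmb did. With a score over the 16 general macrophage genes in place of Adgre1, 2 rose without and 0 with Ddx3y counts. With mouse and library number added beside Adgre1, 7 of the 22 rose without, Gpnmb among them, and 0 with Ddx3y counts. Gpnmb had log2 fold changes of 0.65 (edgeR adjusted p = 0.011) and 0.71 (adjusted p = 0.012) given Adgre1 alone. The medians of the 22 genes given Adgre1 were 0.23 without and 0.20 with Ddx3y counts, against 0.12 and 0.47 for the quartiles alone.

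**Figure D4:**
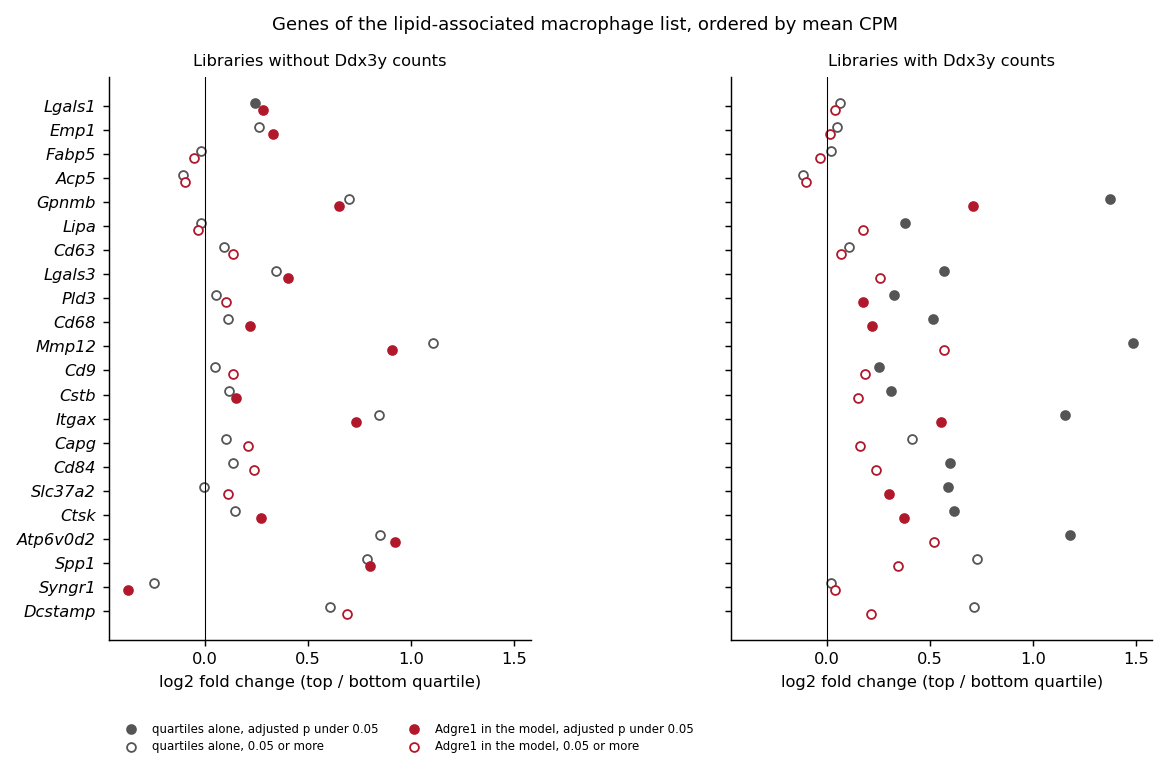
Log2 fold change of top against bottom quartile for the 22 lipid-associated macrophage genes, ordered by mean CPM, in libraries without (left) and with (right) Ddx3y counts. Grey is the comparison of quartiles alone and red has Adgre1 in the model; filled points have an adjusted p under 0.05, 13 of the grey points with Ddx3y counts and 1 without.

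The other macrophage lists are set beside 0.817% of all genes higher without and 2.32% with Ddx3y counts. Of 22 resident macrophage genes, 1 rose without Ddx3y counts, Gas6, a ligand for the uptake of dying cells (0.39, edgeR adjusted p = 0.0082), which had -0.03 (adjusted p = 0.73) with them. Gas6 was also called for the difference between clusters. Lyve1 had 0.15 and 0.05, and Mrc1, the mannose receptor, -0.02 and 0.17, with 0 of them called. Of 16 inflammatory monocyte genes 1 rose with Ddx3y counts, Il1rn (adjusted p = 0.046, and 0.073 without DO180). Of 14 genes for the uptake of dying cells and complement C1q, 1 rose without, the transglutaminase Tgm2 (0.25, adjusted p = 0.012).

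Of 33 lysosome genes, 1 rose without Ddx3y counts (Ctsl) and 5 with them (Ctsl, Ctsh, Hexa, Gla and Gusb), of which Gla alone passed without DO180. Over all genes 0.817% were higher without and 2.32% with Ddx3y counts, and 0.321% without DO180. Among 16 genes for cholesterol and lipid handling, Soat1, which esterifies cholesterol, and the scavenger receptors Msr1 and Olr1 rose and Pparg fell with Ddx3y counts. Soat1 had a log2 fold change of 0.47 (edgeR adjusted p = 0.0091), and without DO180 only Soat1 and Olr1 of this list passed. Of 10 MHC class II genes and 16 interferon-stimulated genes 0 passed in either cluster, with 0.817% and 2.32% of all genes higher. Their median log2 fold changes lay between -0.20 and -0.01.

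Between the quartiles alone, 0.817% of all genes were higher and 0.376% lower without Ddx3y counts. With them the shares were 2.32% and 0.898%. Of 18 adipocyte genes 0 passed without and 1 fell with Ddx3y counts, Pparg, the regulator of fat cell identity (-0.19, edgeR adjusted p = 0.049, and 0.099 without DO180). Leptin, whose gene Lep rises with fat mass, had medians of 371.2 and 618.5 CPM without Ddx3y counts (0.62, adjusted p = 0.14) and 1237 and 1889 CPM with them (0.33, adjusted p = 0.36). Of 15 thermogenesis genes 0 passed without and 1, Cidea, fell with Ddx3y counts (adjusted p = 0.042, and 0.072 without DO180). The markers of T cells, B cells and NK cells had 0 to 1 called gene a list in each cluster.

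At a given Adgre1 level, mitochondrial genes were lower in the top quartile of the libraries without Ddx3y counts. Of 28 genes of oxidative phosphorylation 27 fell and 0 rose, with a median log2 fold change of -0.32. Of 15 citric acid cycle genes 14 fell (median -0.43), of 15 thermogenesis genes 13 fell (median -0.77), and of 19 genes for the breakdown of branched-chain amino acids 13 fell (median -0.20). The background was 9.1% of genes lower and a median of 0.0053. Among them Cidea, a lipid droplet protein of brown fat, fell by 1.02 (edgeR adjusted p = 0.0036). The brown fat uncoupler Ucp1 had -0.80 (adjusted p = 0.080).

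In the libraries with Ddx3y counts 0 genes of these 4 lists passed at a given Adgre1 level, beside only 0.283% of all genes lower. Their medians were -0.08 to -0.12. The difference between clusters given Adgre1, called for 2.3% of all genes, was called for 6 of the 28 oxidative phosphorylation genes, 4 of the citric acid cycle genes and 3 of the thermogenesis genes, Ppargc1a, Kcnk3 and Pank1. With the macrophage score in place of Adgre1, 25 of 28, 14 of 15 and 10 of 15 fell without Ddx3y counts. For the quartiles alone 0 genes of these lists passed there, beside 0.376% of all genes lower, with medians of -0.18, -0.26 and -0.48.

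Genes of dividing cells moved the other way. Given Adgre1, 18 of 20 mitosis genes rose without Ddx3y counts, with a median log2 fold change of 0.52. With Ddx3y counts 1 (Bub1) rose, which did not pass without DO180. Among all genes 9.38% were higher without and 1.37% with Ddx3y counts. Mki67 had 0.59 (edgeR adjusted p = 0.0046) without and 0.12 (adjusted p = 0.72) with Ddx3y counts. The 88 libraries highest in genes of other tissues were counted over the whole series. Most of them lay outside the top and bottom quartiles without Ddx3y counts. Without those inside these quartiles, 4 of the 20 rose, with a median of 0.35, while the share of all genes called went from 18.5% to 11%. With the macrophage score in place of Adgre1, 9 of the 20 rose. The cause of these moves was not tested. For the quartiles alone 0 and 1 of the 20 passed, beside 1.19% and 3.22% of all genes called.

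Of 20 extracellular matrix genes, 11 rose without and 1, the protease inhibitor gene Timp1, with Ddx3y counts given Adgre1, beside 9.38% and 1.37% of all genes higher. For the quartiles alone, with 0.817% and 2.32% of all genes higher, Col6a3 and Adamts2 rose without, and Col1a1, Col1a2, Col3a1, Timp1 and Adamts2 with Ddx3y counts, where Timp1 alone passed without DO180. Timp1 went from a median of 2.01 to 3.36 CPM with Ddx3y counts (0.85, edgeR adjusted p = 0.016), while the second and the third quartile stood at 8.69 and 15.3 CPM. Col6a3, a chain of collagen VI, had 0.39 (adjusted p = 0.034) without and 0.22 (adjusted p = 0.12) with Ddx3y counts.

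**Figure D5:**
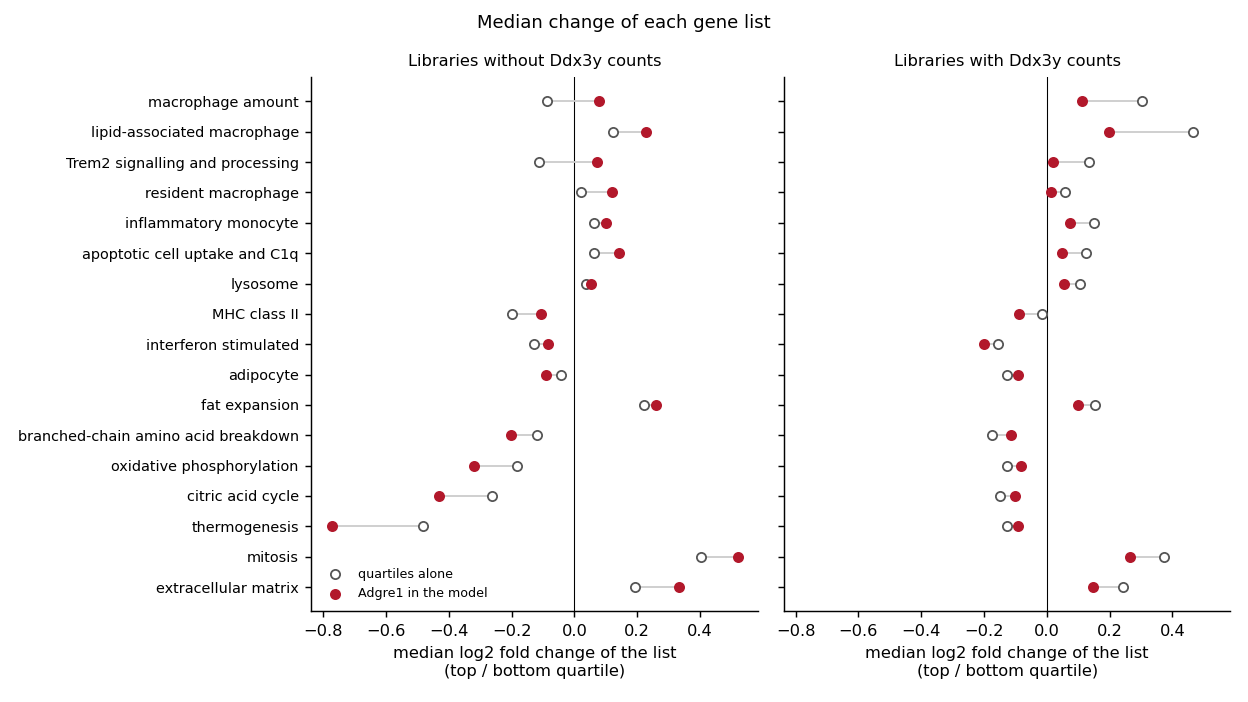
Median log2 fold change of top against bottom quartile for 17 gene lists in libraries without (left) and with (right) Ddx3y counts. Open circles are the quartiles alone and red circles have Adgre1 in the model; thermogenesis moved from -0.48 to -0.77 without Ddx3y counts, and the lipid-associated list from 0.47 to 0.20 with them.

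The fold changes of the clusters resembled each other weakly. Across 18368 genes, which are not independent replicates, Pearson's r between the clusters was 0.24, and 63.01% of genes had the same sign. A difference between clusters was called for 180 genes (0.98%), for 30 without DO180 and for 4 with capped counts.

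The number in the mouse name, the only stand-in for order of entry, was unequal between quartiles with Ddx3y counts, with means of 336.6 (SD 156.6, n = 60) in the bottom and 266.1 (SD 130.97, n = 60) in the top quartile. Without Ddx3y counts the means were 240.75 and 252.05. In 5 blocks of mouse number, Treml1 was higher in the top quartile in 5 of 5 blocks of each cluster, by 3.86 to 6.05 log2 units without and 4.20 to 6.11 with Ddx3y counts. Nfya and B230354K17Rik were also higher in 5 of 5 blocks of each cluster. Gpnmb was higher in 5 of 5 blocks with Ddx3y counts and in 3 of 5 without, from -0.73 to 0.42. In 5 blocks of library number, Treml1, Nfya and B230354K17Rik were again higher in 5 of 5 blocks of each cluster. Gpnmb was then higher in 4 of 5 blocks with Ddx3y counts, from -0.39 to 1.54, and in 2 of 5 without, from -0.50 to 0.79.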

How the data were processed

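Adipose RNA of 468 Diversity Outbred mice was sequenced by the authors from polyA-selected libraries with spike-ins. EMASE, run through GBRS, assigned reads to a transcriptome of the founder strains and gave the deposited expected counts per gene. Of these, 66.8% were whole numbers within 1e-06, and the rest were rounded. GRCm38 and DESeq2 are named in the submitters' processing notes. The second deposited table holds variance-stabilized values on a log2 scale, made by the authors with DESeq2, and served as an alternative. The authors' batch, generation and sex terms were not in the labels and were not in the models.

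Genes were kept where 50% or more of the libraries held 10 or more counts, which left 18380 of 23180. Quartiles were compared within each Ddx3y cluster with edgeR 4.0.16 (TMM, robust quasi-likelihood, R 4.3.3). Its p-values were Benjamini-Hochberg adjusted over the 18380 genes kept. The 12 genes used by the rule (Trem2, Adgre1, Xist and Y genes) were left out after the adjustment, and calls were counted over the other 18368. limma 3.58.1 and DESeq2 1.42.0 were alternatives, together with other ratios, filters and library sets. The edgeR fit was tried on counts simulated for the libraries without Ddx3y counts, with each gene's dispersion the same in every library. That trial held no outlying libraries, so it cannot speak to calls that rest on a single library. Differences in mean log2 CPM carry intervals of 1.96 SE.

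The members, the 38 gene lists and the tests were chosen with earlier results of these data known. Genes were named by rule: those called in both clusters that averaged 5 CPM or more and had the largest fold changes (10 in each direction for quartiles alone, 8 given Adgre1), the 2 highest of the main lists, the 3 with the lowest p for a difference between clusters, and Tyrobp, Cd9, Gpnmb, Spp1, Lyve1, Mki67, Lep and Pparg. Treml1, Trem family members, 9830107B12Rik, B430306N03Rik, Oard1 and further list members were named after their values were seen. Capped counts were planned, and fits without DO021, DO180, DO032 or DO066, the middle-quartile comparison and the difference between clusters given Adgre1 were chosen after seeing the data. Depth was 35.3 M to 137.8 M counts a library, with at least 70 Trem2 and 487 Adgre1 counts.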

Additional observations from a re-analysis of the deposited data

Results flagged for a closer look

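The difference between top and bottom quartile differed between the clusters, by the test of that difference in edgeR, for 180 genes. Among genes averaging 5 CPM or more, the lowest p belonged to Ceacam10, Akr1cl and Acsbg1. Ceacam10, an adhesion molecule gene of the reproductive tract, had a log2 fold change of 2.81 with and -2.52 without Ddx3y counts, a difference of 5.33 (adjusted p = 2.1e-05), and the highest library of the top quartile with Ddx3y counts reached 607.99 CPM against a median there of 0.243 CPM. Akr1cl, an aldo-keto reductase gene, had 0.64 with and 4.58 without, a difference of -3.95 (adjusted p = 2.1e-05). Acsbg1, an acyl-CoA synthetase gene, had 0.26 with and 3.04 without, a difference of -2.79 (adjusted p = 0.0014). Among the top and bottom quartiles without Ddx3y counts both had their highest level in mouse DO032, 893 CPM of Akr1cl against 38.97 CPM in the next highest library and 453.8 CPM of Acsbg1 against 4.64 CPM. With capped counts 4 genes were called for a difference between the clusters.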

How the results depend on the processing

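No paired analysis was possible because each mouse gave 1 library and the libraries share no replicate numbers. All values are the percent of genes tested that were called. Over the alternatives, 70 numbers of calls stayed within 1.5 times the reported one and 46 did not. Among the 70 were all those with DESeq2's size factors in edgeR and all those without DO021, DO032 or DO066. So were all those without libraries high in ribosomal RNA or whose Xist and Ddx3y were at odds. A similar number of calls does not mean the same genes or directions. With the slope over all libraries, most genes called without Ddx3y counts were lower, while most in the reported fit were higher. With that slope, or with Csf1r in place of Adgre1 in the ratio, many genes called there were not shared with the reported fit. The 3.22% with Ddx3y counts became 1.33% with DESeq2, 4.38% of more genes with no filter, 0.0599% with limma on the variance-stabilized values, 6.33% with 3 groups of libraries in place of 4, 1.63% with a slope over all libraries, 1.67% with mouse and library number in the model, 17.4% with Csf1r in place of Adgre1 in the ratio, 0.25% with capped counts and 0.577% without DO180. The 1.19% without Ddx3y counts became 0.131% with limma, 0.185% with the numbers, 0.506% without the libraries high in other tissues and 0.517% with capped counts. The 0.147% in both became 0.0653% (DESeq2), 0.259% (no filter), 0.0218% (limma), 0.0218% (numbers), 0.0762% (pseudocount of 2), 0.359% (Csf1r), 0.0327% (capped) and 0.0817% (without DO180). The 0.98% for a difference became 0.0218% (DESeq2), 1.63% (no filter), 0% (limma, with 1264 genes at an unadjusted p under 0.05), 0.37% (numbers), 3.15% (Csf1r), 0.0218% (capped) and 0.163% (without DO180). Given Adgre1, the 1.65% with Ddx3y counts became 2.52% (DESeq2), 2.62% (no filter), 0.0817% (limma), 0.0926% (numbers), 0.0762% (capped) and 0.114% (without DO180). The 18.5% without became 8.87% (3 groups), 8.99% (macrophage score) and 11% (without other-tissue libraries). The 0.376% in both became 0.637% (DESeq2), 0.462% (no filter), 0.049% (limma), 0.223% (3 groups), 0.0381% (numbers), 0.12% (score), 0.125% (without other-tissue libraries), 0.0544% (capped) and 0.0762% (without DO180). Where a share moved, the cause was not tested. The log2 fold change of Ceacam10 turned to -0.31 with the slope (adjusted p = 0.90). That of Acsbg1 turned to -0.19 without the other-tissue libraries and -0.16 without DO032, and given Adgre1 to -0.23 and -0.20. Treml1 stayed called in both clusters with DESeq2, limma, capped counts and the numbers. With limma 4 genes were called in both clusters, namely Treml1, Nfya, B230354K17Rik and 9830107B12Rik, and Ddr1, Cchcr1 and Bicral were not. At these depths counting error is small beside the spread between mice for genes above a few CPM.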

Other observations

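The small structural RNAs Rn7s1, Rmrp and Rpph1 are parts of the signal recognition particle and of RNA-processing enzymes. They had negative edgeR log2 fold changes in both clusters, and each was concentrated in single libraries of the bottom quartiles. With Ddx3y counts the medians went from 2.78 to 2.99 CPM for Rn7s1, from 0.152 to 0.157 CPM for Rpph1 and from 0.228 to 0.204 CPM for Rmrp. With capped counts none of them was called in either cluster. Rn7s1 stood at 233.6 CPM in mouse DO360 against 8.68 CPM in the next highest library of the top and bottom quartiles without Ddx3y counts, and at 408.1 CPM in mouse DO405 against 12.9 CPM with them. The quartiles between reached 16.8 CPM without and 22.1 CPM with Ddx3y counts. The gut-type genes Apoa4 and Muc2, an intestinal apolipoprotein and a mucin, reached 1522 and 196.6 CPM in mouse DO310, in the bottom quartile with Ddx3y counts, against 65.2 and 7.23 CPM in the next highest of the same quartiles. The interferon-induced GTPase gene Iigp1 reached 1817 CPM in mouse DO337, in the bottom quartile without Ddx3y counts, against 155.9 CPM in the next highest of these quartiles. Their part in the counts of called genes was not tested, apart from the capped fit.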
